A study of Mus musculus with 6 samples.

Results

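Homeostatic astrocyte genes are the transcripts by which resting astrocytes take up glutamate, couple to one another, move water and potassium and keep their identity. The 10 examined here were chosen by symbol from these roles, with earlier results of these data known: Slc1a2, Slc1a3 and Glul for glutamate, Gja1 and Gjb6 for gap junctions, Aqp4 and Kcnj10 for water and potassium, and Aldh1l1, Sox9 and Acsbg1 for identity and metabolism. All 10 of 23366 genes in the table were found, and all 10 were among the 14385 genes tested, those averaging 0.5 FPKM or more across the mice (FPKM is a fragment count divided by transcript length and library size).

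Poly(A) RNA of brain cortex was sequenced from 3 microglia-depleted mice at day 10 after depletion (A4, A5 and A6) and from 3 control mice (A1, A2 and A3), all on the C57BL/6 strain background. Per the study's methods, depleted mice were heterozygous for CX3CR1-CreERT2, a tamoxifen-inducible Cre recombinase driven by the CX3CR1 promoter of microglia and other myeloid cells, and for iDTR, a diphtheria toxin receptor that Cre switches on, whereas control littermates carried CX3CR1-CreERT2 without iDTR. Both groups received tamoxifen, and diphtheria toxin was used to kill the cells with the receptor. The sources used here give no age and do not say whether the control mice received toxin, so what the toxin did by itself and what the loss of microglia did cannot be told apart. Microglia return after ablation in this model, so these are tissues with repopulated microglia.

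Astrocytes wrap synapses and blood vessels. They clear glutamate through sodium-driven transporters, convert it to glutamine, buffer potassium and join into networks through connexin channels. When tissue is injured they become reactive, with more of the intermediate filament proteins GFAP and vimentin, and the genes described here are often used to ask whether their resting functions are kept.

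None of the 10 genes passed the test for a difference between the groups, at an adjusted p under 0.1 by limma (Benjamini-Hochberg adjustment over all genes tested), where 0.0278% of all genes tested did, and 1 of the 10 had an unadjusted p under 0.05. Acsbg1, an acyl-CoA synthetase of long-chain fatty acids, had the lowest p of the 10 and was 20.3% lower in depleted mice on average. Sox9, a transcription factor that marks astrocytes, was the one member with higher values in every depleted mouse than in every control mouse. The glutamate transporters, the gap junction genes and the water and potassium channels differed by at most 12.8% between the group means. In bulk tissue, fewer astrocytes and less RNA per astrocyte cannot be told apart.

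Several libraries stood apart before any comparison. Xist, an RNA of the inactive X chromosome, was at 4.74 FPKM in A3 and between 30.9 and 46.7 in the other 5 mice, and 4 Y-linked genes summed to 5.56 FPKM in A4 and to at most 0.16 elsewhere. The study's methods describe age- and sex-matched groups, and the labels were kept as given. Pomc, a hypothalamic and pituitary gene, was at 269 FPKM in A3 and at most 9.42 elsewhere. Pearson correlations of log2 values between libraries ran from 0.969 to 0.994, and the 5 lowest all involved A4. Fragment totals, estimated from the smallest steps between values, were between 7140000 and 20500000, with the lowest in A5. For A5, 10700000 scored almost the same (0.661 against 0.662). Both are near multiples of a smaller total below the range searched, so the A5 total may be lower than either. Summed FPKM of 8 microglial genes was 119 to 141 in control and 134 to 201 in depleted mice, so the groups overlapped. Without A3 no member changed direction, and differences that moved by over 1.5 times without A4 are given without it as well.

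The levels in control cortex spread widely among the 10 genes. Glul, which encodes glutamine synthetase, was highest at 683 ± 35.2 FPKM (SD, n = 3). The glutamate transporter Slc1a2 (GLT-1) followed at 248 ± 9.45 FPKM (SD, n = 3), and its relative Slc1a3 (GLAST) was at 143 ± 9.11 FPKM (SD, n = 3). Next came Gja1 at 68.5, Kcnj10 at 58.7 and Acsbg1 at 57.5 FPKM, neighbours in the order whose control ranges overlapped. Gjb6, Aqp4 and Aldh1l1 averaged 35.3, 29.6 and 25.5 FPKM, again with overlapping ranges between neighbours, and Sox9 was lowest at 5.02 ± 0.299 FPKM (SD, n = 3). Control mice therefore differed from one another by 3.82% (Slc1a2) to 11.6% (Kcnj10) of the mean, as SD over mean, and the differences between groups are read against that spread.

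**Figure D1:**
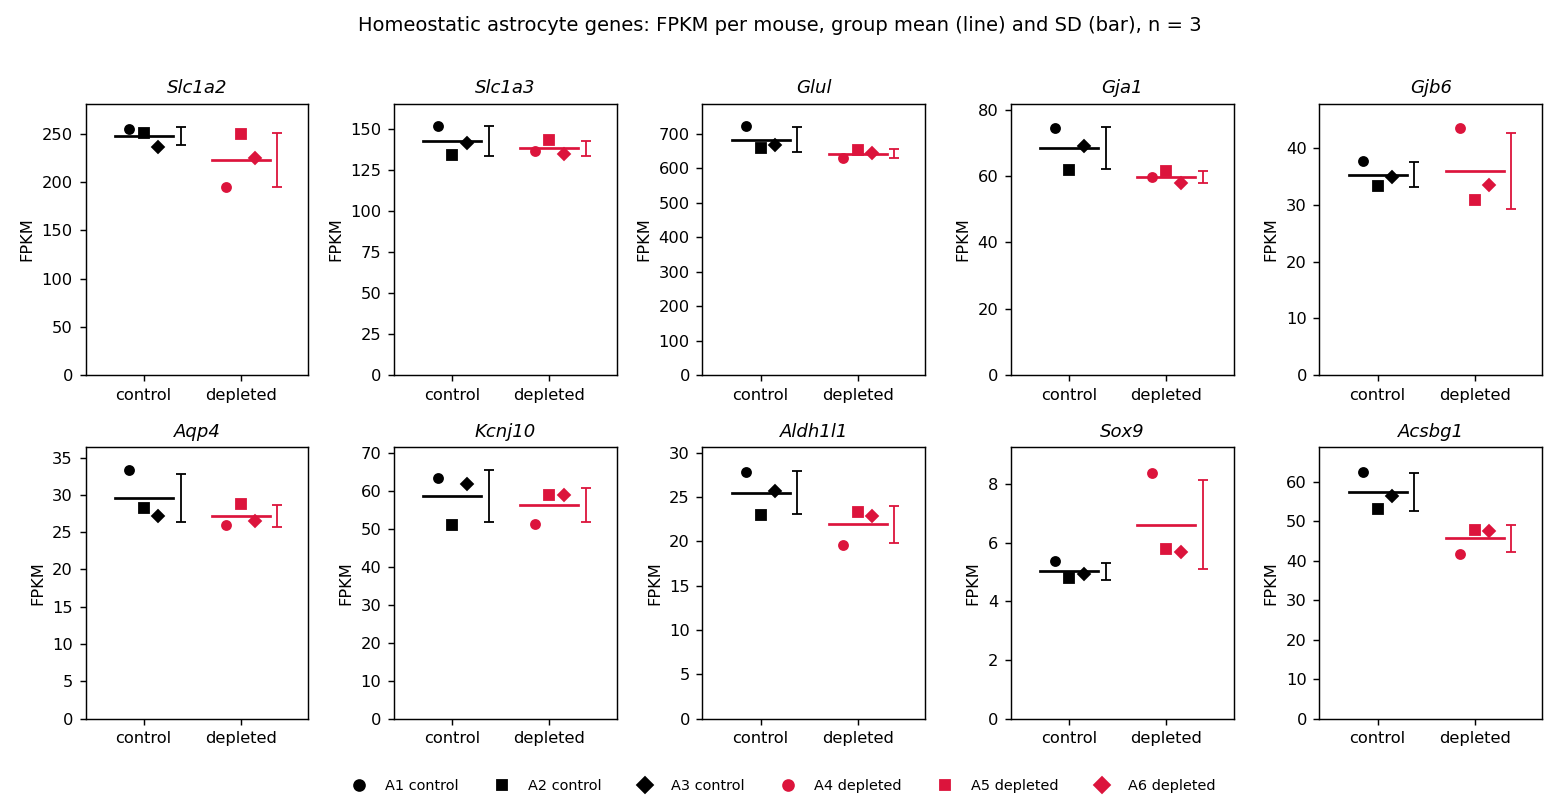
FPKM of each of the 10 genes (y axes, from 0) in control (black) and depleted (red) mice, with 1 symbol per mouse, the group mean as a line and the SD as a bar (n = 3). Acsbg1, Gja1 and Glul have no overlap between groups with depleted mice lower, Sox9 has none with depleted mice higher, and the other 6 overlap.

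The first role is the handling of glutamate. Slc1a2, the transporter that carries most glutamate uptake in the forebrain, was at 255, 251 and 237 FPKM in the control mice A1, A2 and A3, and in the depleted mice A4, A5 and A6 at 194, 250 and 225 FPKM. The lowest mouse was A4, while A5 lay inside the control range. The difference was -0.16 on the log2 scale of FPKM + 1 (SE 0.095, limma adjusted p = 0.592), and it was -0.061 without A4 and -0.24 without A5.

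Slc1a3, the other astrocytic glutamate transporter, was at 152, 134 and 142 FPKM in the control mice and at 136, 144 and 135 FPKM in the depleted mice. The control mice spanned every depleted value. Its log2 difference was -0.043 (SE 0.072, limma adjusted p = 0.861), with a 95% interval from -0.21 to 0.12, and it ran from -0.086 without A2 to 0.0049 without A1.

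For Glul, whose enzyme makes glutamine from the glutamate that is taken up, the values were 723, 659 and 666 FPKM in control and 628, 654 and 645 FPKM in depleted mice. Every depleted mouse lay below every control mouse, although A2 and A5 lay close together. The log2 difference was -0.087 (SE 0.066, limma adjusted p = 0.662), and -0.045 without A1.

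The ratio of Slc1a2 to Slc1a3 within a mouse compares the transporters with each other and does not depend on library size. It was 1.67, 1.87 and 1.67 in control and 1.42, 1.74 and 1.67 in depleted mice. A5 lay inside the control range, A6 just below its lowest value and A4 further below (p = 0.4 by an exact permutation test, two-sided, whose smallest possible p with these groups is 0.1). The log2 difference of the ratio was -0.11, and -0.028 without A4.

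Slc38a3, the glutamine transporter through which astrocytes release glutamine, was at 26.6, 22.99 and 24.4 FPKM in control and 13.9, 24.6 and 17.7 FPKM in depleted mice. It was low in A4 and A6 and inside the control range in A5, with a log2 difference of -0.41 (-0.23 without A4 and -0.62 without A5). Among 12 genes of glutamate and GABA handling outside the members, Slc38a3 included, 11 were lower on average and 1 higher, with a median log2 difference of -0.16 (-0.11 without A1) and 0 called. Grm3, a metabotropic glutamate receptor, had the lowest value at -0.43 (-0.17 without A4), and the neutral amino acid transporter Slc1a4 the highest at 0.0047 (0.018 without A4 and -0.048 without A2).

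The gap junction genes gave different patterns. Gja1 encodes the main connexin between astrocytes and was at 74.6, 61.9 and 69.0 FPKM in control and 59.8, 61.5 and 57.9 FPKM in depleted mice. All depleted mice lay below all control mice, but A2 and A5 were nearly level. The log2 difference was -0.19 (SE 0.084, limma adjusted p = 0.475, unadjusted p = 0.0503), the same to 2 decimals without A4.

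Gjb6 encodes a second connexin of mature astrocytes. Its values were 37.6, 33.3 and 35.0 FPKM in control and 43.5, 30.8 and 33.5 FPKM in depleted mice. A4 was the highest of the 6 mice and A5 the lowest. The log2 difference was 0.013 (SE 0.13, 95% interval -0.27 to 0.30, limma adjusted p = 0.980), and it turned to -0.13 without A4.

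The ratio of Gja1 to Gjb6 was 1.98, 1.86 and 1.97 in control and 1.37, 1.99 and 1.73 in depleted mice. A5 had the highest ratio of all and A4 the lowest, so the groups overlapped (exact permutation test, p = 0.4), and the log2 difference of the ratio was -0.21 (-0.061 without A4).

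Connexins of other cells were read for comparison. Gjb1, an oligodendrocyte connexin that couples to the astrocytic ones, was at 8.81 to 9.05 FPKM in control mice. In depleted mice it was at 4.24, 6.90 and 8.76 FPKM, all below the control range and lowest in A4, a log2 difference of -0.43 (-0.18 without A4). Of the 6 tested of 7 such connexins, 5 were lower on average, between -0.60 for Gja4, a connexin of blood vessels, and 0.058 for Gjd2, a neuronal one (0.18 without A4). Their median was -0.38 with all mice and -0.18 without A4. Summed FPKM of 8 oligodendrocyte genes was 2976 to 3242 in control and 2606 to 2698 in depleted mice, and its part in these values was not tested.

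**Figure D2:**
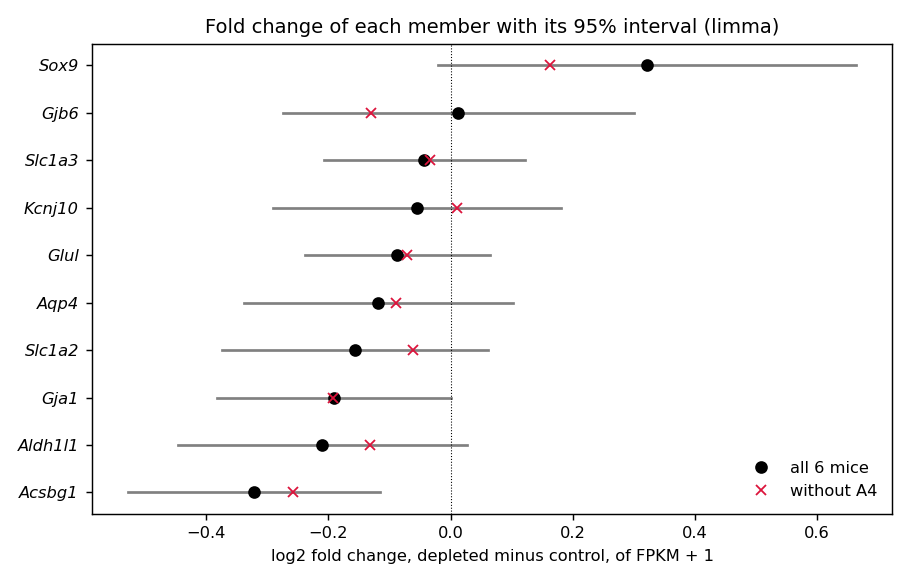
Log2 difference of FPKM + 1, depleted minus control (x axis), for each gene with all 6 mice (black, with the 95% interval of limma as a gray line) and without A4 (red cross). The interval of Acsbg1, -0.53 to -0.11, is the one that does not reach 0. Without A4, Sox9 moves from 0.32 to 0.16, and Gjb6 and Kcnj10 cross 0.

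Water and potassium are handled at the endfeet. Aqp4, the water channel that lines astrocyte endfeet on blood vessels, was at 33.3, 28.3 and 27.2 FPKM in control and 26.0, 28.8 and 26.6 FPKM in depleted mice. A1 stood above the rest, and the remaining control mice lay among the depleted ones. The log2 difference was -0.12 (SE 0.096, limma adjusted p = 0.687), and -0.033 without A1.

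Kcnj10 encodes Kir4.1, the inward rectifier through which astrocytes take up potassium. It was at 63.4, 50.9 and 61.8 FPKM in control and 51.3, 58.9 and 58.9 FPKM in depleted mice. The lowest value belonged to a control mouse, A2. Its log2 difference was -0.055 (SE 0.10, limma adjusted p = 0.878), and it ran from -0.15 without A2 to 0.011 without A4. The ratio of Aqp4 to Kcnj10 was 0.440 to 0.555 in control and 0.451 to 0.507 in depleted mice, with every depleted value inside the control range (exact permutation test, p = 0.6). The log2 difference of that ratio was -0.067, and -0.10 without A4.

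Genes that work with these channels were mostly lower on average. All 8 of the potassium, sodium and bicarbonate genes were below control, with a median of -0.15, and their summed FPKM was 600 to 642 in control and 501 to 562 in depleted mice, with no overlap. Car2, carbonic anhydrase 2, lay lowest at -0.28 (-0.081 without A4) and Atp1b2, a sodium pump subunit, highest at -0.12. The part of oligodendrocytes in the value of Car2 was not tested. Kcnj16, the Kir5.1 subunit that pairs with Kir4.1, overlapped, at 7.18 to 9.53 and 6.67 to 8.35 FPKM, with a log2 difference of -0.14 (-0.061 without A4 and -0.057 without A1).

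The next list joins other endfoot genes to those of the dystrophin complex, which anchors AQP4 and Kir4.1 to the vessel wall. Of its 10 genes, 9 were lower on average, with a median of -0.095 (-0.070 without A4). Gpr37l1, an astrocytic orphan receptor, was lowest at -0.30 with all 3 depleted mice (79.5 to 87.1 FPKM) below the control mice (93.8 to 109 FPKM), and its adjusted p was 0.370 by limma. Sgcd, a sarcoglycan, was highest at 0.14 (0.34 without A4 and -0.20 without A6) and at most 2.09 FPKM in any mouse. Mlc1 and Hepacam, which form a complex at endfeet, overlapped between groups, with log2 differences of -0.063 and -0.12, which were -0.0021 and -0.075 without A1.

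The identity and metabolism genes held the members with the lowest and the highest differences. Acsbg1 was at 62.7, 53.1 and 56.6 FPKM in control and 41.8, 47.9 and 47.7 FPKM in depleted mice. Every depleted mouse was below every control mouse, and the nearest pair, A2 and A5, was further apart than for Gja1 or Glul in proportion to its level. The log2 difference was -0.32 (SE 0.090, 95% interval -0.53 to -0.11), with an unadjusted p of 0.00687, which placed it 260th of all genes tested, and a limma adjusted p of 0.378. It was -0.26 without A4, -0.26 without A1 and -0.27 after a correction for GC content.

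Aldh1l1, a folate enzyme used as a general astrocyte marker, was at 27.8, 23 and 25.6 FPKM in control and 19.5, 23.4 and 22.9 FPKM in depleted mice. A5 lay above the control mouse A2, so the groups overlapped. Its log2 difference was -0.21 (SE 0.10, limma adjusted p = 0.517), and -0.13 without A4.

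Sox9 was at 5.36, 4.79 and 4.92 FPKM in control and 8.38, 5.79 and 5.68 FPKM in depleted mice. A4 stood far above all others, and A5 and A6 lay slightly above A1, the highest control mouse. From the estimated fragment totals, the counting error of 1 library was 0.443 FPKM in A5, at the lower estimate of its fragments, and 0.350 FPKM in A6. These errors are close to the gaps between these mice and A1. Both totals that fitted A5 are near multiples of a smaller total below the range searched, so its error may be larger than this. The log2 difference was 0.32 (SE 0.15, limma adjusted p = 0.497), and 0.16 without A4.

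Within a mouse, Aldh1l1 over Sox9 was 5.19, 4.80 and 5.21 in control and 2.33, 4.03 and 4.02 in depleted mice. Acsbg1 over Aldh1l1 was 2.25, 2.31 and 2.21 in control and 2.14, 2.05 and 2.09 in depleted mice, lower in every depleted mouse than in every control mouse. Both ratios separated the groups, each with p = 0.1 by the exact permutation test, the smallest it can give, and 0.2 after Benjamini-Hochberg adjustment over the 6 ratios computed. The log2 difference of Aldh1l1 over Sox9 was -0.59, and -0.33 without A4, and that of Acsbg1 over Aldh1l1 was -0.11, and -0.13 without A4. The ratios were chosen after the values had been seen.

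**Figure D3:**
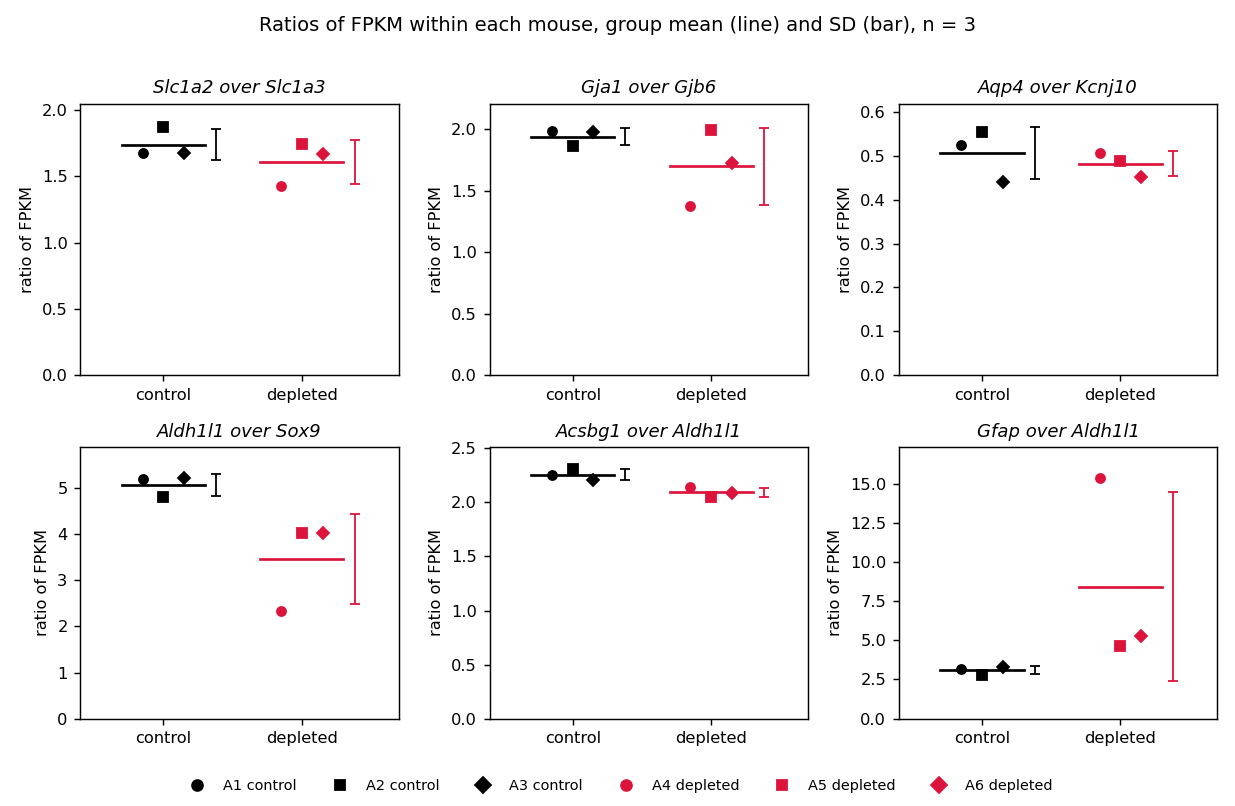
Ratios of FPKM within each mouse (y axes, from 0) for 6 pairs of genes in control (black) and depleted (red) mice, with 1 symbol per mouse, the group mean as a line and the SD as a bar (n = 3). Aldh1l1 over Sox9 and Acsbg1 over Aldh1l1 are lower and Gfap over Aldh1l1 is higher in every depleted mouse, and the other 3 ratios overlap.

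Other astrocytic transcription factors were not higher as a list. Of 12, 7 were lower and 5 higher on average, with a median of -0.12 (-0.014 without A2 and -0.071 without A4). Hes5, a Notch target, was lowest at -0.35 (-0.17 without A4) and Nfib, a nuclear factor I gene, highest at 0.18 (0.064 without A6). Nfia, which drives astrocyte formation, was at 5.24 to 5.34 FPKM in control and 5.13, 5.04 and 6.46 FPKM in depleted mice, a log2 difference of 0.050 (0.094 without A4 and -0.048 without A6).

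Among 23 genes of astrocyte metabolism, 20 were lower on average, with a median of -0.14 (-0.079 without A1). Gldc, the glycine decarboxylase of the glycine cleavage system, was at 8.41, 7.79 and 7.88 FPKM in control and 3.27, 5.46 and 4.72 FPKM in depleted mice. Its groups were well apart, with a log2 difference of -0.74 (-0.57 without A4), but its adjusted p was 0.310 by limma. Psph, an enzyme of serine synthesis, was highest at 0.16. Aldoc, the glycolytic aldolase of astrocytes, was at 573, 515 and 536 FPKM in control and 466, 467 and 489 FPKM in depleted mice, without overlap and with a log2 difference of -0.19. Mt3, a metallothionein, was at 404 to 513 and 397.2 to 429.7 FPKM, a log2 difference of -0.14 (-0.066 without A3).

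Of 27 surface and secreted genes, 20 were lower on average, with a median of -0.15 (-0.087 without A1). Mfge8, a secreted protein that tags dying cells for uptake, was lowest at -0.69 (-0.39 without A4) with 79.5 to 90.4 FPKM in control and 35.0 to 68.7 FPKM in depleted mice. Slc14a1, a urea transporter, was highest at 0.43, with 2.75 to 3.28 FPKM in control and 4.13 to 4.60 FPKM in depleted mice. Neither passed the test, with adjusted p of 0.387 and 0.370 by limma.

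Taking the 10 homeostatic genes as a list, 8 were lower on average in depleted mice, where 52% of all genes tested were. One member, Acsbg1, had an unadjusted limma p under 0.05 and a lower mean, beside 5.74% of all genes tested, and none had a higher mean at that p, beside 4.79%. The count at that p in either direction became 3 without A2, 3 without A5 and 2 without A6. Sox9, with a higher mean, was among them without A5 and without A6. With A2, A5 or A6 left out, 0 were called at the adjusted threshold. Groups did not overlap for 3 members that were lower, Glul, Gja1 and Acsbg1, beside 9.38% of all genes tested, and for 1 that was higher, Sox9, beside 8.21%. The median log2 difference of the 10 was -0.10 against -0.0085 for all genes tested, and it ran from -0.039 without A1 to -0.15 without A2.

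The place of A1 matters to these counts. A1 held the highest value in 8 of the 10 genes and A4 in the other two, whereas A4 held the lowest in 5 and A2 in 3. Averaged over the 10 genes, log2 values relative to the control mean were 0.11, -0.089 and -0.016 in A1, A2 and A3 and -0.095, -0.059 and -0.0996 in A4, A5 and A6. The control mouse A2 was therefore among the depleted mice on this scale, and without A1 the number of members lower on average was 6.

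**Figure D4:**
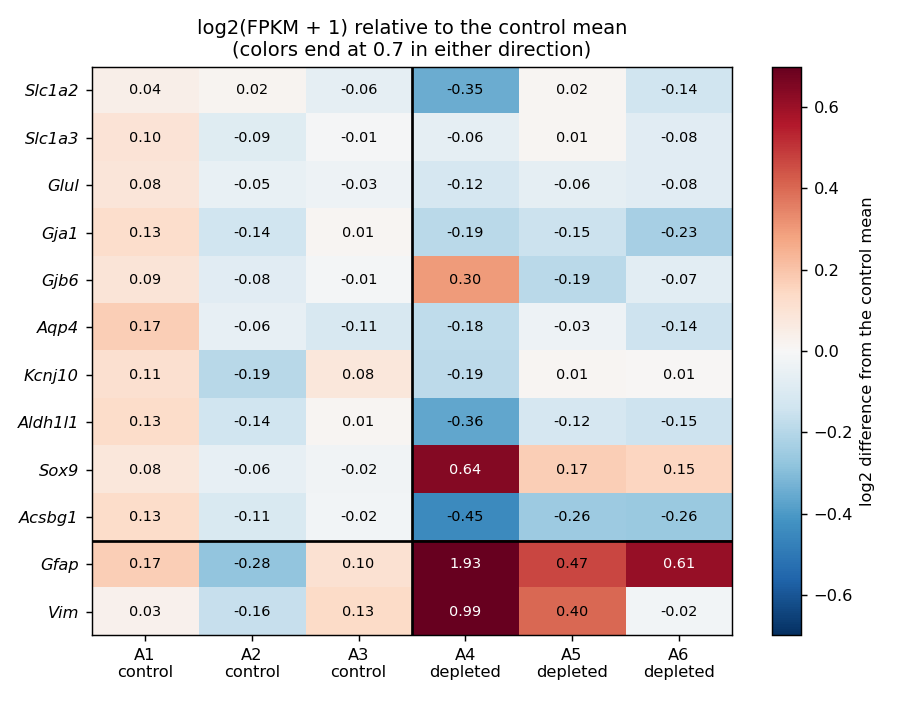
Log2 of FPKM + 1 relative to the mean of the control mice for the 10 genes (rows above the line) and for Gfap and Vim (rows below it) in each mouse (columns), with the value printed in each cell and red for higher, blue for lower. A1 is above the control mean in all 10 genes, A4 holds both the lowest value of the 10 (Acsbg1, -0.45) and the highest (Sox9, 0.64), and Gfap reaches 1.93 in A4.

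The 92 genes of the 6 wider astrocyte lists were also mostly lower on average. In all, 75 were lower and 17 higher on average, with a median of -0.14 (-0.11 without A4 and -0.10 without A1). Of all genes tested, 52% were lower on average. At an unadjusted limma p under 0.05, 15 were lower and 1 was higher, beside 5.74% and 4.79% of all genes tested, and 0 passed the adjusted threshold. Groups did not overlap for 20 lower and 1 higher, beside 9.38% and 8.21%. These lists were chosen with earlier results of these data known, and their genes are not independent of one another.

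Reactive genes were mostly higher on average. Gfap was at 88.3, 64.5 and 84.2 FPKM in control and 300, 109 and 120 FPKM in depleted mice, without overlap. Its log2 difference was 1.00 (SE 0.34, limma adjusted p = 0.396), and 0.54 without A4. Vim was at 17.4, 15.1 and 18.7 FPKM in control and 34.7, 22.8 and 16.8 FPKM in depleted mice, and A6 lay inside the control range. Its log2 difference was 0.46, and 0.19 without A4. Of 32 reactive genes 26 were tested, and 23 were higher on average, where 6907 of the 14385 genes tested were. Their median was 0.40, and 0.12 without A4, when 9 of the 26 were lower. Iigp1, an interferon-induced GTPase, was highest at 1.42 (0.68 without A4), and Serping1, the C1 inhibitor, lowest at -0.12 (-0.37 without A4 and 0.18 without A6).

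Set against Aldh1l1 in the same mouse, Gfap was 3.17, 2.80 and 3.28 times as abundant in control and 15.4, 4.65 and 5.26 times in depleted mice (exact permutation test, p = 0.1). Each depleted mouse had a higher ratio than every control mouse, while the groups overlapped for Aldh1l1 itself. The log2 difference of the ratio was 1.23, and 0.68 without A4.

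**Figure D5:**
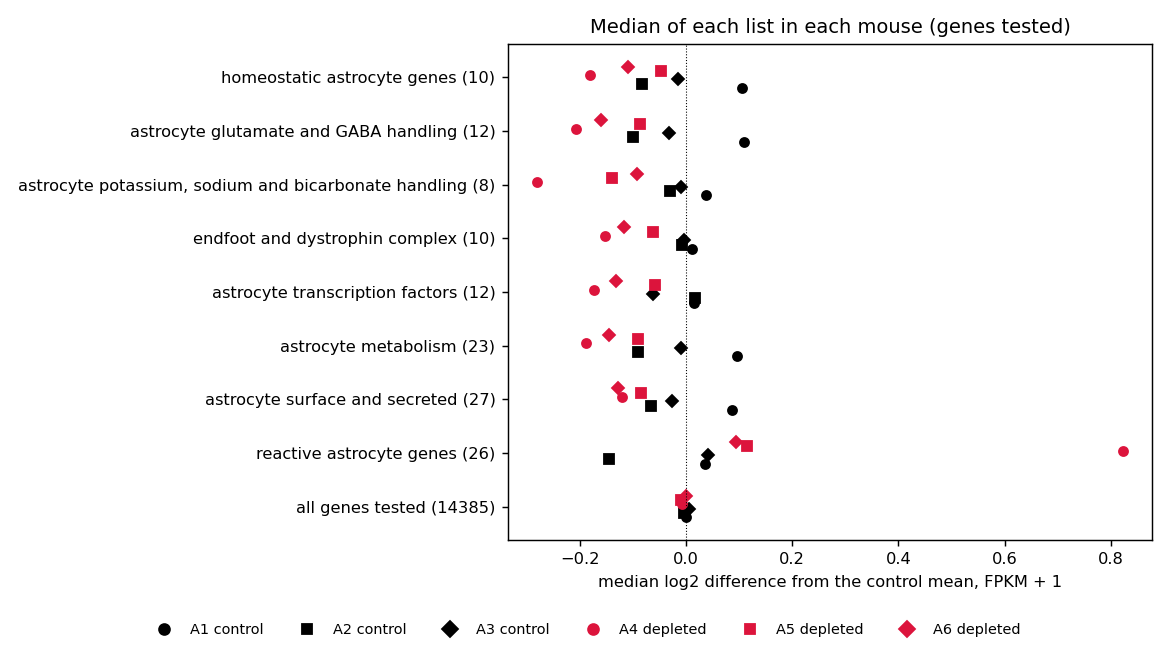
Median log2 difference from the control mean (x axis) of each list of genes in each mouse, with control mice in black and depleted mice in red and the number of genes tested in parentheses. The homeostatic genes run from -0.18 in A4 to 0.10 in A1, the reactive genes reach 0.82 in A4, and all genes tested lie near 0 in every mouse.

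Markers of other cells moved with the groups in part. Oligodendrocyte genes were lower on average in 8 of 8 and their precursors' genes in 5 of 5. Endothelial genes were higher in 6 of 6, with summed FPKM of 41.8 to 47.4 in control and 50.0 to 53.6 in depleted mice, and neuronal genes were lower in 7 of 12. Choroid plexus and ependymal genes summed to 170 to 327 FPKM in control and 48.6 to 73.6 FPKM in depleted mice. No gene of these lists was at 0 in all mice, and their part in the values of the homeostatic genes was not tested. The summed FPKM of the homeostatic genes was 1435, 1299 and 1325 in control and 1209, 1305 and 1257 in depleted mice, with A5 above A2.

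The members did not all move together from mouse to mouse. Over the 6 mice, Pearson's r between log2 values was highest for Aldh1l1 with Acsbg1, at 0.955, and lowest for Slc1a2 with Sox9, at -0.864. Every negative r involved Sox9 or Gjb6. Pairs among the other members were all positive, from 0.468 (Slc1a2 with Kcnj10) to 0.955. Genes outside the 10 whose pattern was most like their mean, among 14375 compared, were Slc22a6 (r = 0.979), Hfe (0.977), Lsamp (0.964), Slc39a11 (0.963) and Plxnb1 (0.962). All 5 were highest in A1, as the members' mean was, and the mice share their groups and libraries, so these are descriptions without a test.

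The promoters of the members were read for what they share. RefSeq windows of 250 bases before the transcription start (build GRCm38.p6) were at hand for 8 of the 10 genes, without Aqp4 and Sox9, among 32851 windows in all, and 9 motifs were searched on both strands. The CCAAT box (letters CCAAT), which NF-Y binds, was in 5 of the 8, Slc1a3, Glul, Kcnj10, Aldh1l1 and Acsbg1, and in 33.8% of all windows. These 5 held 2 or more of them, as 10.1% of all windows did. The GC box (GGGCGG), a site of SP1, was in 4 of the 8 and in 32.7% of all windows. Among sites of interferon and cytokine factors, GAS (TTCNNNGAA) was in 2 of the 8, Acsbg1 and Slc1a3, and in 7.02% of all windows. The ISRE core (GAAANNGAA) was in 1 of the 8, Glul, and in 7.13% of all windows. With 8 windows, neither an excess nor a lack of these sites can be told. The SOX motif (ACAANG) was in Slc1a3 alone and in 36.3% of all windows, the TATA box (TATAAA) was likewise in Slc1a3, beside 12.4%, and the NFI motif (TTGGCA), the CRE (TGACGTCA) and the E-box (CACGTG) were in none, beside 12.3%, 1.55% and 6.02%. The letters of the NFI motif can overlap those of a reversed CCAAT box (ATTGG), and a match is a description of letters only.

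The 4 windows below are shown because each holds a pair of CCAAT boxes at like distances from the start, in capitals in either orientation. They are chr9:54661886-54662135 for Acsbg1 on the minus strand, chr1:153899679-153899928 for Glul, chr6:90550543-90550792 for Aldh1l1 and chr1:172340960-172341209 for Kcnj10, each 5′ to 3′ toward the gene.
Acsbg1: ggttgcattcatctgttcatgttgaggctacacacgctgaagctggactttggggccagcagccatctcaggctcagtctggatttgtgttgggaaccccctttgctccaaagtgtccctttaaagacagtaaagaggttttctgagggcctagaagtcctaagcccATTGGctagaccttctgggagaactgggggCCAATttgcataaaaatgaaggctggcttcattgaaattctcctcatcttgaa
Glul: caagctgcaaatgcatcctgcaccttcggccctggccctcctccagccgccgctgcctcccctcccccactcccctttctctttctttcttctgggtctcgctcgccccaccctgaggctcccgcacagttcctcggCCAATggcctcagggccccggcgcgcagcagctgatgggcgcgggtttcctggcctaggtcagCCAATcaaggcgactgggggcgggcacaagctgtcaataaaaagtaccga
Aldh1l1: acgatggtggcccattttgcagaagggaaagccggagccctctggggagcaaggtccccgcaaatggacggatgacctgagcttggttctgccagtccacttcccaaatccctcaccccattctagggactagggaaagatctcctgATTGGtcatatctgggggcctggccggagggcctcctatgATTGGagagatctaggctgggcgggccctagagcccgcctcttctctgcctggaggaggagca
Kcnj10: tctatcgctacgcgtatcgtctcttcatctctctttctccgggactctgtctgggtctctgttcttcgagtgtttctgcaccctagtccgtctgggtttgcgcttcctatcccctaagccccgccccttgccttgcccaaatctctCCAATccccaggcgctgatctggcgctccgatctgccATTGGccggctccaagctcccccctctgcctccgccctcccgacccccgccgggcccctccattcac

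The first base of the farther box lay 83 bases before the start in Acsbg1, 113 in Glul, 103 in Aldh1l1 and 104 in Kcnj10, and that of the nearer box 53, 50, 63 and 67 bases before it. Of these 4 genes, Acsbg1 and Glul had groups that did not overlap and Aldh1l1 and Kcnj10 had groups that did. GC content was 48.4% in the Acsbg1 window, 64.8% in Glul, 59.6% in Aldh1l1 and 62% in Kcnj10, against a median of 52.4% over all windows.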

How the data were processed

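Poly(A)-selected libraries of cortex from 6 mice were sequenced by the authors as 75 bp paired-end reads. The submitters' processing notes name TopHat, RSEM and DESeq and the genome build mm9, with no versions. The authors deposited 1 table of FPKM values, which per the study's methods were normalized with TMM factors, and no count test was run on it. The log2(FPKM + 1) values of genes averaging 0.5 FPKM or more were fitted in limma 3.58.1 (R 4.3.3; lmFit, then eBayes with trend), with Benjamini-Hochberg adjustment over all genes tested and a threshold of 0.1. A fold change on this scale understates the change of low genes. Ratios were compared by the exact two-sided permutation test. The p-values measure the spread between these mice, for which the labels give no litter, batch or date. Fit and depth estimate were tested on simulated data, the depth estimate only with totals inside its search range. Of 23366 symbols, 23005 (1273 by an older symbol) matched the reference annotation used for GC content. No coordinate of mm9 was used, and promoter windows are those of RefSeq on GRCm38.p6. Fragment totals are estimates and cover counting error only.

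The members and all gene lists were chosen with earlier results of these data known. Named genes are the 10 members, the highest and lowest tested gene of each astrocyte list, Gfap and Vim, 11 partner genes, of which 3 are not reported here, and the 5 genes most like the members' mean. Pomc and Xist were added for what they show of the libraries. Alternatives changed the scaling (TPM, median of ratios, quantile), the filter (none, or a mean of 1 FPKM), the pseudocount (0.1), the variance model (no trend, robust, array weights) and the threshold (0.05), corrected for GC content, or left out each mouse in turn. Leaving out A3 and A4 together was chosen after seeing the data.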

Additional observations from a re-analysis of the deposited data

How the results depend on the processing

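Over 18 alternative settings, 170 values of the 10 genes were recomputed, of which 161 kept their direction and their side of the threshold, 9 changed sign and 0 passed the threshold. The lowest adjusted p of any member was 0.239 by limma. Slc1a3 turned to 0.0049 without A1. Gjb6 turned to -0.0046 with GC correction, -0.083 with array weights and -0.14 without A3 and A4 together, and ran from -0.13 to 0.11 with 1 mouse left out. Kcnj10 turned to 0.051 without A3 and A4 together, and ran from -0.15 to 0.011 with 1 mouse left out. Of the other named genes, GC correction turned Mt3 to 0.0082, and array weights turned Slc1a4 to -0.014. With 1 mouse left out, Nfia ran from -0.048 to 0.10, Slc1a4 from -0.048 to 0.074, Sgcd from -0.20 to 0.34, Gjd2 from -0.084 to 0.18, Serping1 from -0.37 to 0.18, Slc1a3 from -0.086 to 0.0049 and the log2 ratio of Aqp4 to Kcnj10 from -0.16 to 0.0022. The cause of these changes was not tested.

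Genes called in the whole table numbered 4 with all mice, 20 with array weights, 2 without trend, 7 without A3 and A4 together, and 2 to 29 with 1 mouse left out. Members at an unadjusted p under 0.05 numbered 1, and 2 with GC correction, array weights, no filter or rescaling to TPM, when Gja1 joined Acsbg1, and 1 to 3 with 1 mouse left out. GC correction changed the genes at that p from 689 higher and 826 lower to 708 higher and 578 lower, and left 9 members lower. No paired analysis was possible because the labels give the groups no shared replicate numbers. A group size of 3, and few fragments of Sox9 in A5 and A6, limit what could be detected.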
